A study of Mus musculus with 64 samples.

Results

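The genes followed here are the 10 genes Slc14a1, Clca4, Pitpnc1, Etl4, Slc15a2, Gdpd3, Tmc3, F8, Chl1 and Gabrr1, out of 26385 genes in the RNA-Seq tables. All 10 were found by their gene symbol. They were selected on their RNA-Seq levels, having been higher in germ cells of Morc1tg/tg embryos at E16.5 or E18.5, so their values and calls at those stages describe the choice and are no finding. The later stages, the whole testes and the other mutant lines were not used in the choice.

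The Morc1tg allele carries a tyrosinase transgene inserted into Morc1, on an FVB/N background, which removes exons 2–4. Controls of the sorted cells and of the P14.5 testes were Morc1tg/+ males, which carry 1 copy of the same allele. Germ cells of the 3 earlier stages, E16.5 (2 Morc1tg/+ and 2 Morc1tg/tg libraries), E18.5 (2 and 2) and P2.5 (3 and 2), were sorted for eGFP from mice that also carried the Oct4-IRES-eGfp reporter on a mixed background, and germ cells at P10.5 (4 and 3) were sorted from FVB/N testes as side scatter-low, EPCAM-high, MHC I-negative cells. Whole testes came from Morc1 mice at P10.5 (3 Morc1tg/tg, 2 Morc1tg/+ and 1 Morc1+/+, plus 1 wild-type and 1 heterozygous library labelled preliminary) and P14.5 (3 and 3), and at P10.5 from DNMT3L mice (3 knockout, 3 heterozygous, 3 wild type) and Miwi2 mice (2 labelled knockout, 2 heterozygous). Each library was made from 1 mouse, and strains of the DNMT3L and Miwi2 mice were not given in the sources used here.

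In the fetal testis, male germ cells stop dividing and their genome, cleared of most DNA methylation earlier, is methylated anew. MORC1 is a nuclear ATPase of the GHKL family that acts in this window, DNMT3L is the cofactor of the de novo methyltransferases, and MIWI2, encoded by Piwil4, is the Argonaute protein through which piRNAs direct methylation to transposons. The 10 genes belong to no common pathway, and most are known best from other tissues: they encode transporters and channel proteins (Slc14a1, Slc15a2, Tmc3, Gabrr1), a chloride channel regulator (Clca4), lipid-handling proteins (Pitpnc1, Gdpd3), a cell adhesion molecule (Chl1), a blood clotting factor (F8) and a protein needed in the notochord and the discs of the spine (Etl4).

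The sorted libraries held 2413679 to 14918478 reads on genes and the testis libraries 22509570 to 42137954, and the scale of all levels below is RPKM, reads scaled to exon length and to mapped reads. The sorted and testis libraries were made with different kits, so a level in one kind was not tested against a level in the other. Morc1 itself stood at 44.5 ± 11.9 RPKM (SD, n = 2) in E16.5 Morc1tg/+ cells against 9.72 ± 2.02 (n = 2) in Morc1tg/tg cells, and reads on the exons outside the deleted part still count toward it. Dnmt3l was lower in DNMT3L knockout testes (log2 fold change -3.93, edgeR quasi-likelihood test, Benjamini-Hochberg adjusted p = 1.02e-05), whereas Piwil4 was higher in the libraries labelled Miwi2 knockout (11.1 ± 0.57 against 6.83 ± 0.25 RPKM, n = 2 each, log2 fold change 0.69, adjusted p = 0.000746). What the Miwi2 labels mean for Piwil4 could not be settled from gene-level reads, and those libraries are called the libraries labelled Miwi2 knockout throughout.

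Markers of germ cells and of 8 other cell types were read in the same libraries. Before P10.5, where few genes of any kind passed, 1 marker passed, a blood marker higher at E16.5, but the summed levels of several lists, in CPM (reads scaled to library size), did not overlap between the genotypes. At E16.5, blood markers summed to 51.4 to 54.0 in Morc1tg/tg against 19.3 to 35.9 in Morc1tg/+ cells and macrophage markers to 18.64 to 19.49 against 14.49 to 16.48, while peritubular and stromal markers were lower (96.1 to 110.0 against 112.7 to 114.9). At E18.5, Sertoli cell markers summed to 199.8 to 224 against 176 to 193, and the endothelial (240.3 to 249 against 276.0 to 276.3), macrophage (4.28 to 8.38 against 13.6 to 14.3) and duct lists (37.6 to 50.3 against 51.4 to 77.6) were lower. At P2.5, Sertoli cell markers summed to 133 to 159.6 against 104 to 119 and blood markers to 7.58 to 21.0 against 1.55 to 5.84, with 5 of the 8 blood markers at 0 in the mutants and 6 in the controls. The other lists overlapped at these stages, germ cell markers among them (2342 to 3340 in all libraries). At P10.5, 4 of 8 Sertoli cell markers were lower in Morc1tg/tg cells, 2 of 8 peritubular and stromal markers were higher, 1 of 2 tested blood markers was lower, no Leydig, endothelial, macrophage or duct marker passed, and no fat marker was tested. The P10.5 sums of peritubular and stromal (126 to 144 against 103 to 112) and endothelial markers (40.1 to 44.7 against 27.0 to 38.0) were higher without overlap. Of the 9 tested germ cell markers, 3 were higher and 1 was lower. The part of these lists in the members' values was not tested.

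Sequence upstream of the members is shown for 4 of them, because the study concerns DNA methylation and these 4 differ in how many CG pairs the stretch holds. In the RefSeq promoter table used (GRCm38.p6), 9 of the 10 genes were matched, all but Slc14a1, and the 250 bases before each start are written 5′ to 3′ along the gene, with each CG in capitals. Slc15a2 lies at chr16:36784963-36785212 (minus strand), Gdpd3 at chr7:126766164-126766413 (plus), Tmc3 at chr7:83584681-83584930 (plus) and Pitpnc1 at chr11:107470721-107470970 (minus).
Slc15a2: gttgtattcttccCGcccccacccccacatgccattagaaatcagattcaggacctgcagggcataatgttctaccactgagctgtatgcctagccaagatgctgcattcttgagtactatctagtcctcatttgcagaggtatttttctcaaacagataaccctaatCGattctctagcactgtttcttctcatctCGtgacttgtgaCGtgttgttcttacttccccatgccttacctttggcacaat
Gdpd3: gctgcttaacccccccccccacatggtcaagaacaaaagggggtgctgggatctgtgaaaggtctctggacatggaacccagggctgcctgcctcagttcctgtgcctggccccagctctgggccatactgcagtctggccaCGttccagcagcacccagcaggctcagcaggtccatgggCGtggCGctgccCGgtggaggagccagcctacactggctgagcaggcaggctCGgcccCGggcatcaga
Tmc3: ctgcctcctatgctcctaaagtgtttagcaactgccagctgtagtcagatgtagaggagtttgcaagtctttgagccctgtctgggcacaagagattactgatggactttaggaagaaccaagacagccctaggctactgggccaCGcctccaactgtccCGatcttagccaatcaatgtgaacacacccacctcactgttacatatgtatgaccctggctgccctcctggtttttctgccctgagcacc
Pitpnc1: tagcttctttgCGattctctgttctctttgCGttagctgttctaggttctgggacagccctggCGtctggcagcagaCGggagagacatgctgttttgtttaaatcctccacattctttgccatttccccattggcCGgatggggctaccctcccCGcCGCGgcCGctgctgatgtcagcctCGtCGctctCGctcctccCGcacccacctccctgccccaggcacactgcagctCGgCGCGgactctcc
These stretches held 4, 6, 2 and 16 CG pairs, in the order shown. Across the 11 starts of the 9 matched members the median was 6 CG pairs, and across all 32851 promoters of 27025 genes in the table it was also 6, with quartiles of 2 and 16. The letters TATAAA, on either strand, were present in 1 of the 11 stretches (an Etl4 start) and in 12.4% of all promoters.

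Before birth every member was read in the control cells of at least 1 library, and every member was higher in both Morc1tg/tg libraries than in both Morc1tg/+ libraries at E16.5 and at E18.5 (10 of 10 at each stage, against 23% and 12.9% of all tested genes), which is what they were picked for. Likewise, 9 of 10 at E16.5 and 2 of 10 at E18.5 (Clca4 and Chl1) lay among the 0.385% and 0.0416% of tested genes called higher, values the choice used. Slc14a1, a urea transporter, read 2.28 and 2.44 RPKM in Morc1tg/+ cells at E16.5 and 9.97 and 11.1 in Morc1tg/tg cells, and 0.452 and 0.0354 against 9.29 and 7.30 at E18.5. Its level in the controls was lower at E18.5 than at E16.5, while the mutant libraries lay between 7.30 and 11.1 RPKM at both stages. Chl1, a close relative of the neural adhesion molecule L1, read 3.03 and 3.50 against 4.78 and 4.57 RPKM at E16.5, and 1.60 and 0.905 against 8.65 and 9.54 at E18.5. Gdpd3, which splits lysophospholipids, read 5.15 and 2.83 against 16.4 and 25.4 RPKM at E16.5, and 0.427 and 0 against 2.70 and 6.36 at E18.5. Only 3 control reads lay behind the Gdpd3 level at E18.5, so its ratio of 26.4 has a 95% counting interval of 8.56 to 132.0.

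Clca4, a member of a family that regulates calcium-activated chloride currents, was the most highly expressed of the 10 at E18.5, at 39.5 and 35.5 RPKM in Morc1tg/tg cells against 8.72 and 5.73 in the controls. At E16.5 it read 8.30 and 7.74 RPKM in the controls and 29.4 and 22.4 in the mutants. Gabrr1, the rho1 subunit of a GABA receptor known from the retina, read 5.90 and 6.01 against 12.4 and 11.0 RPKM at E16.5, and 7.80 and 4.61 against 24.6 and 33.7 at E18.5. The other 5 members ranged from 0 to 5.23 RPKM in the controls and from 1.98 to 14.6 in the mutants over both stages, and the plot of germ cell levels shows each library.

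**Figure D1:**
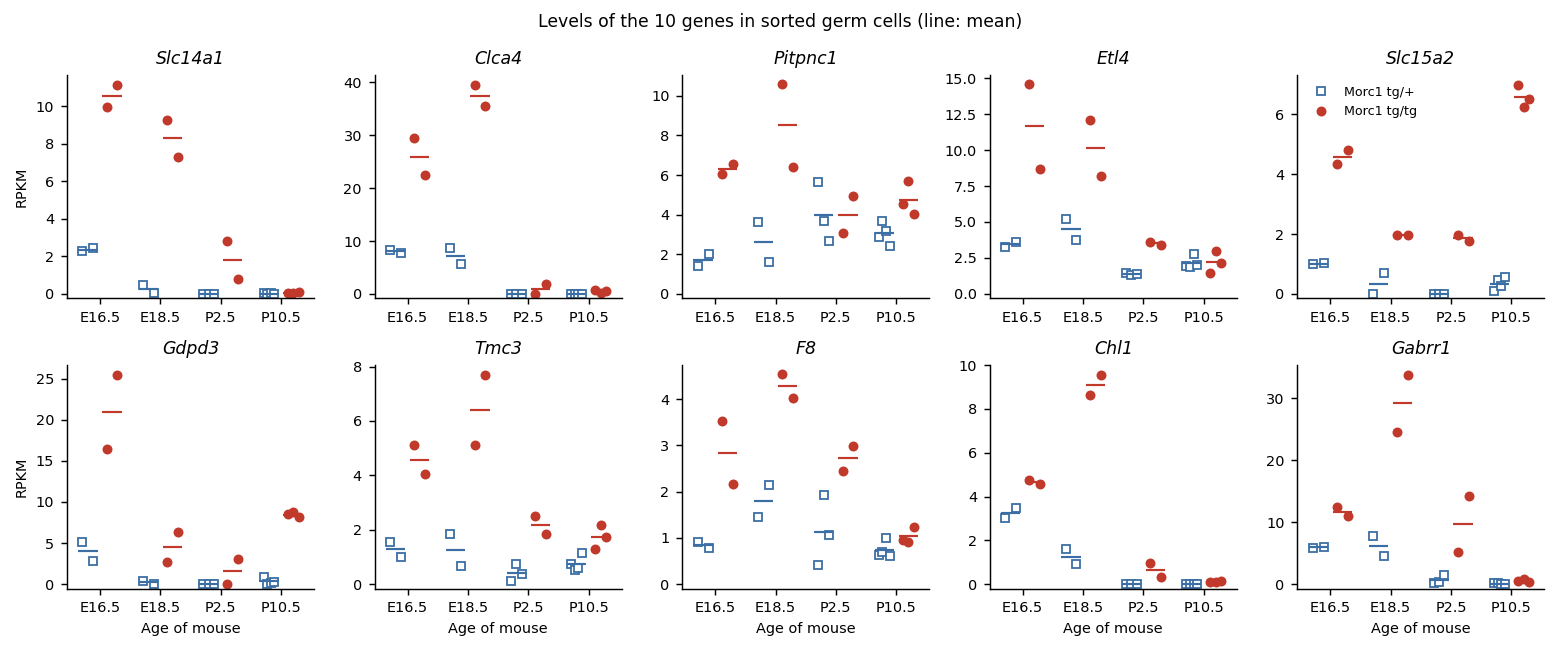
RPKM of the 10 genes in each sorted germ cell library by age of the mouse, with Morc1tg/+ (blue squares) and Morc1tg/tg (red circles) libraries, 1 point per library and a line at each mean. All 10 genes sit higher in both mutant libraries at E16.5 and E18.5, the stages used to choose them, and by P10.5 Slc15a2 and Gdpd3 stand at 6.24 to 8.75 RPKM in the mutants while Slc14a1, Clca4, Chl1 and Gabrr1 are under 1 RPKM.

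At P2.5, shortly after birth, 4 members had no read in any of the 3 Morc1tg/+ libraries and reads in at least 1 Morc1tg/tg library. Slc15a2, a proton-coupled carrier of small peptides, read 0 in all 3 controls and 1.96 and 1.76 RPKM in the mutants (33 and 72 reads), at least 59.9-fold higher when the controls are set to 3 reads over their group, as for each such fold. Such folds take the mutant reads as counted, without their counting error or the spread between mutant libraries. Slc14a1 read 0 in the controls and 2.84 and 0.795 RPKM in the mutants (44 and 30 reads, at least 42.2-fold), and Chl1 0 and 0.979 and 0.339 (32 and 27 reads, at least 33.7-fold). Gdpd3 read 0 in the controls and 0 and 3.12 RPKM in the mutants, so its 34 reads came from 1 library, and Clca4 likewise had 65 reads in Morc1tg/tg replicate 2, none in replicate 1, and 4 over the controls.

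The other members were read in both groups at P2.5. Gabrr1 read 0.195, 0.388 and 1.51 RPKM in Morc1tg/+ cells and 5.19 and 14.2 in Morc1tg/tg cells, and the groups did not overlap (log2 fold change 3.70, SE 0.70, but 4.85 without Morc1tg/+ replicate 3 and 2.90 without Morc1tg/tg replicate 2). Tmc3, of the transmembrane channel-like family, read 0.108, 0.728 and 0.375 against 2.52 and 1.84 RPKM, also without overlap. Etl4 read 1.44, 1.30 and 1.41 against 3.61 and 3.42 RPKM. F8, the coagulation cofactor, read 0.410, 1.93 and 1.07 against 2.45 and 2.99 RPKM, while Pitpnc1, which carries phosphatidylinositol between membranes, read 5.66, 3.70 and 2.65 against 3.07 and 4.92, with overlap and a log2 fold change of -0.03.

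Across all genes at P2.5, edgeR's quasi-likelihood test called 0 of the 8 members it tested (0.0486% of all tested genes were called), and the same test at an unadjusted p under 0.05 passed 7 of the 8 members and 698 of 14413 genes. DESeq2 called 4 members, Slc14a1, Slc15a2, Chl1 and Gabrr1. Of these, Slc14a1, Slc15a2 and Chl1 had no control read. They entered both tests through Morc1tg/tg reads alone. Gabrr1, with 2 to 37 reads per control and 50 to 334 per Morc1tg/tg library, passed the filter on low counts through Morc1tg/tg reads. The place of all 4 in these counts is a description. Clca4 and Gdpd3 were not tested, as too few libraries held reads. Every Morc1tg/tg library was above every Morc1tg/+ library for 7 of the 10 members, against 11.4% of all tested genes. With 2 mutant libraries, leaving out Morc1tg/tg replicate 1 moved the adjusted p of Gabrr1 from 0.146 to 0.0116, and its range over 9 alternatives was 3.5e-07 to 1.

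At P10.5 the sorted germ cells split the members into groups of different level. Slc15a2 read 0.0908, 0.471, 0.279 and 0.551 RPKM in the 4 Morc1tg/+ libraries and 6.99, 6.24 and 6.52 in the 3 Morc1tg/tg libraries. The mutant libraries all stood above the highest control (log2 fold change 4.15, SE 0.26, edgeR adjusted p = 2.99e-12). Gdpd3 read 0.910, 0.0521, 0.175 and 0.251 against 8.50, 8.75 and 8.17 RPKM (log2 fold change 4.52, SE 0.40, adjusted p = 7.92e-09), and without Morc1tg/+ replicate 1, the highest control, its log2 fold change was 5.61. These were the highest of the 10 in Morc1tg/tg cells, and both kept their call in these cells under all 11 alternatives tried.

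Clca4 read 0 in all 4 controls and 0.736, 0.249 and 0.504 RPKM in the mutants (39, 14 and 26 reads), at least 34.3-fold higher (edgeR adjusted p = 7.27e-05). Having no control read, Clca4 entered this test through Morc1tg/tg reads alone. Tmc3 read 0.737, 0.532, 0.587 and 1.15 against 1.28, 2.18 and 1.73 RPKM, without overlap (log2 fold change 1.12, SE 0.24, adjusted p = 0.00203). Chl1 read 0.0233, 0.0142, 0.0160 and 0 against 0.115, 0.0926 and 0.151 RPKM, with 2 to 3 reads in 3 of the controls and 12 to 18 in the mutants (log2 fold change 2.97, SE 0.79, adjusted p = 0.0132). Gabrr1 read 0.158, 0.145, 0.0542 and 0 against 0.472, 0.759 and 0.314 RPKM (log2 fold change 2.37, SE 0.72, adjusted p = 0.0294). Pitpnc1 read 2.87, 3.70, 3.20 and 2.44 against 4.53, 5.71 and 4.02 RPKM, the smallest of the called changes (log2 fold change 0.55, SE 0.14, adjusted p = 0.00858).

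Of the 9 members tested at P10.5, 7 were called higher and none lower, beside 6.43% of all tested genes called higher. The controls held 0 reads of Clca4, 0 to 3 of Chl1, 0 to 6 of Gabrr1 and 1 to 16 of Gdpd3 per library. These members passed the filter on low counts through Morc1tg/tg reads, so their calls beside that share are a description. For 8 of the 10 every mutant library was above every control in RPKM (17.1% of all tested genes). In CPM it was 7 of the 10 and 11.7% of genes, with Slc14a1 overlapping. Etl4 (1.92, 1.90, 2.79 and 2.04 against 1.43, 2.99 and 2.16 RPKM) and F8 (0.622, 0.693, 1.00 and 0.611 against 0.959, 0.904 and 1.24) were not called, with adjusted p of 0.864 and 0.185 by the same edgeR test, and Slc14a1 was too low to test at 0 to 0.106 RPKM. Leaving out single libraries ended 3 of these calls. Gabrr1 lost its call without Morc1tg/+ replicate 3 (adjusted p = 0.0727) or 4 (0.0617) and without Morc1tg/tg replicate 1 (0.0712) or 2 (0.182), Pitpnc1 without Morc1tg/tg replicate 2 (0.0827), and Chl1 without Morc1tg/tg replicate 3 (0.0823).

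Whether the Morc1 effect differed between P2.5 and P10.5 was tested directly. By edgeR, 0 of 10 members passed, beside 0.451% of all genes called. At an unadjusted p under 0.05, 4 of the 10 members (Slc14a1, Etl4, Slc15a2 and Chl1) and 2467 of 15736 genes passed. Slc14a1, Slc15a2 and Chl1 had no control read at P2.5, so their place in this count is a description. Slc14a1, Clca4, Gdpd3 and Chl1 passed the filter on low counts through Morc1tg/tg reads. Sorting method and strain background changed with age, so age, sorting method and strain cannot be told apart. In the Morc1tg/+ controls alone, Etl4 was higher at P10.5 than at P2.5 (log2 fold change 0.90, adjusted p = 0.00424), and Slc15a2, which had no control read at P2.5, had 6, 34, 18 and 33 control reads at P10.5 (adjusted p = 0.0047). Slc15a2 entered this test through its P10.5 reads alone, and without P10.5 Morc1tg/+ replicate 2, 3 or 4 it fell below the filter on low counts and was not tested. Etl4 and Slc15a2 were 2 of 5 members tested, beside 39.3% of all genes. Between the same controls, 5 of 8 Sertoli cell markers were higher at P10.5 (summed 322 to 524 against 104 to 119 CPM), 1 of 9 tested germ cell markers was higher and 6 lower, 3 of 6 endothelial markers and the 1 tested duct marker were lower, and 1 of 7 peritubular and stromal and 1 of 2 blood markers were higher, and their part in the Etl4 and Slc15a2 differences was not tested.

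**Figure D2:**
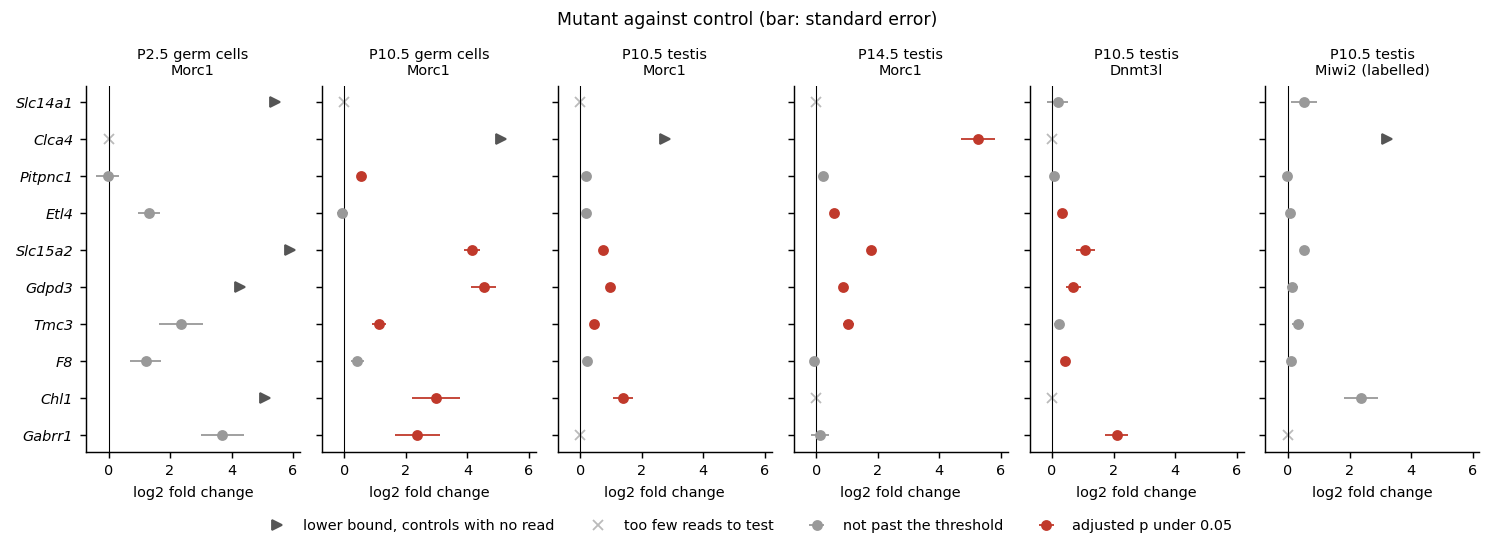
Log2 fold changes (mutant over control) of the 10 genes in each comparison, with standard errors, in the comparisons that the choice of genes did not use. Red points passed an edgeR adjusted p of 0.05, grey points did not, grey triangles are lower bounds for genes with no control read whether called or not, and crosses at 0 mark genes with too few reads to test. Slc15a2 and Gdpd3 are red in P10.5 germ cells, in both Morc1 whole testis comparisons and in the DNMT3L testes.

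In whole testis, where germ cells are mixed with Sertoli and other somatic cells, fewer cells of a type and less RNA per cell cannot be told apart. At P10.5, Slc15a2 read 3.15 RPKM in the Morc1+/+ testis and 2.10 and 3.15 in the Morc1tg/+ testes, against 5.12, 4.29 and 4.43 in the Morc1tg/tg testes (log2 fold change 0.74, SE 0.14, adjusted p = 0.0049). Gdpd3 read 4.32, 4.39 and 4.94 against 8.24, 10.3 and 7.83 RPKM, a larger change without overlap (log2 fold change 0.96, SE 0.12, adjusted p = 0.000688). Tmc3 read 0.566, 0.576 and 0.553 against 0.725, 0.742 and 0.810 RPKM (log2 fold change 0.44, SE 0.11, adjusted p = 0.0239). Chl1 read 0.0199, 0.0276 and 0.0227 against 0.0636, 0.0579 and 0.0626 RPKM (5, 7 and 5 against 14, 14 and 21 reads, log2 fold change 1.39, SE 0.32, adjusted p = 0.0147). Clca4, not tested, had no read in any control, the preliminary libraries included, and 4, 4 and 14 reads in the mutants (at least 6.74-fold).

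By the edgeR test, 4 of 7 tested members were called higher at P10.5, beside 6.08% of all tested genes (no overlap for 5 of the 10, against 15.2% of genes), and Pitpnc1, Etl4 and F8 were not (adjusted p = 0.193, 0.128 and 0.201). Chl1, with 5 to 7 reads per control and 14 to 21 per mutant library, entered the test through Morc1tg/tg reads. Tmc3 and Chl1 lost their calls without Morc1+/+ replicate 1 (adjusted p = 0.0691 and 0.0583), Morc1tg/+ replicate 3 (0.0873 and 0.0558) or Morc1tg/tg replicate 3 (0.115 and 0.0652), and Tmc3 also without Morc1tg/tg replicate 2 (0.0553). Without Morc1tg/+ replicate 2, Etl4 was called as well (log2 fold change 0.31, adjusted p = 0.0058). In these testes 6 of 10 germ cell markers were lower, with summed levels of 696 to 780 CPM in the mutants against 1040 to 1096 in the controls, and 3 of 8 Sertoli cell, 4 of 7 macrophage, 2 of 7 endothelial, 2 of 8 peritubular and stromal and 1 of 6 Leydig markers were higher. Their part in the members' changes was not tested.

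At P14.5 the Morc1 effect on Slc15a2 was larger. Slc15a2 read 1.17, 1.24 and 0.968 RPKM in Morc1tg/+ testes and 3.23, 4.27 and 4.18 in Morc1tg/tg testes (log2 fold change 1.80, SE 0.15, edgeR adjusted p = 0.000123). Its log2 effect was larger than at P10.5 by 1.05 (SE 0.22, adjusted p = 0.00936, range over 14 alternatives 0.00193 to 0.0288), and it was the 1 member of 9 whose effect differed between the ages, beside 8.22% of all genes. The controls read 2.10 to 3.15 RPKM at P10.5 and 0.968 to 1.24 at P14.5, and the mutants 4.29 to 5.12 and 3.23 to 4.27. By the same interaction test, the P14.5 effect lay below the P10.5 effect for 5 of 10 germ cell markers. It lay above for all 8 Sertoli cell markers, 1 of them called, and no marker of the other lists was called. Their part in the Slc15a2 difference was not tested.

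Clca4 read 0, 0.019 and 0 RPKM in the P14.5 controls and 0.320, 0.335 and 0.261 in the mutants (2 reads in all, both in replicate 2, against 87), a ratio of 45.4 with a counting interval of 12.2 to 380.8 (edgeR adjusted p = 0.000305). Clca4 passed the filter on low counts through Morc1tg/tg reads alone. Gdpd3 read 4.98, 5.51 and 4.65 against 10.0, 10.1 and 7.59 RPKM (log2 fold change 0.88, SE 0.14, adjusted p = 0.00202), and Tmc3 0.449, 0.421 and 0.301 against 0.768, 0.775 and 0.870 (log2 fold change 1.05, SE 0.17, adjusted p = 0.00232). Both moved without overlap between the groups. Etl4 read 21.1, 21.3 and 21.2 against 28.0, 31.6 and 34.3 RPKM (log2 fold change 0.57, SE 0.080, adjusted p = 0.000988) without overlap. Sorted germ cells at P10.5, from the other kit, held 1.43 to 2.99 RPKM of Etl4. All 8 Sertoli cell markers were also higher in these testes (summed 10092 to 12956 against 7577 to 8731 CPM) and of 10 germ cell markers 6 were lower and 1 higher (summed 1085 to 1218 against 2266 to 2894). Of the others, 1 of 8 peritubular and stromal and 1 of 2 tested fat markers were higher, and the part of all these in the changes of Slc15a2, Clca4, Gdpd3, Tmc3 and Etl4 was not tested.

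In all, 5 of 8 tested members were called higher at P14.5, beside 14.8% of all tested genes, and 7 of the 10 did not overlap, against 21% of genes. Clca4 counts among the 5 through its Morc1tg/tg reads. Pitpnc1 (5.38, 5.28 and 5.46 against 6.94, 6.15 and 5.48 RPKM, adjusted p = 0.0824), F8 (0.582 to 0.673 against 0.564 to 0.650) and Gabrr1 (0.161 to 0.227 against 0.150 to 0.236) were not called by edgeR, and Pitpnc1 passed without Morc1tg/tg replicate 3 (0.0265). In 3 Morc1tg/+ against 2 Morc1+/+ testis libraries at P10.5, 1 of each preliminary, 0 of 6 members were called, beside 0.0131% of all genes. Both Morc1+/+ libraries are labelled replicate 1, and the labels do not say whether they came from different mice. At an unadjusted edgeR p under 0.05, 2 of the 6 members and 907 of 15290 genes passed.

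**Figure D3:**
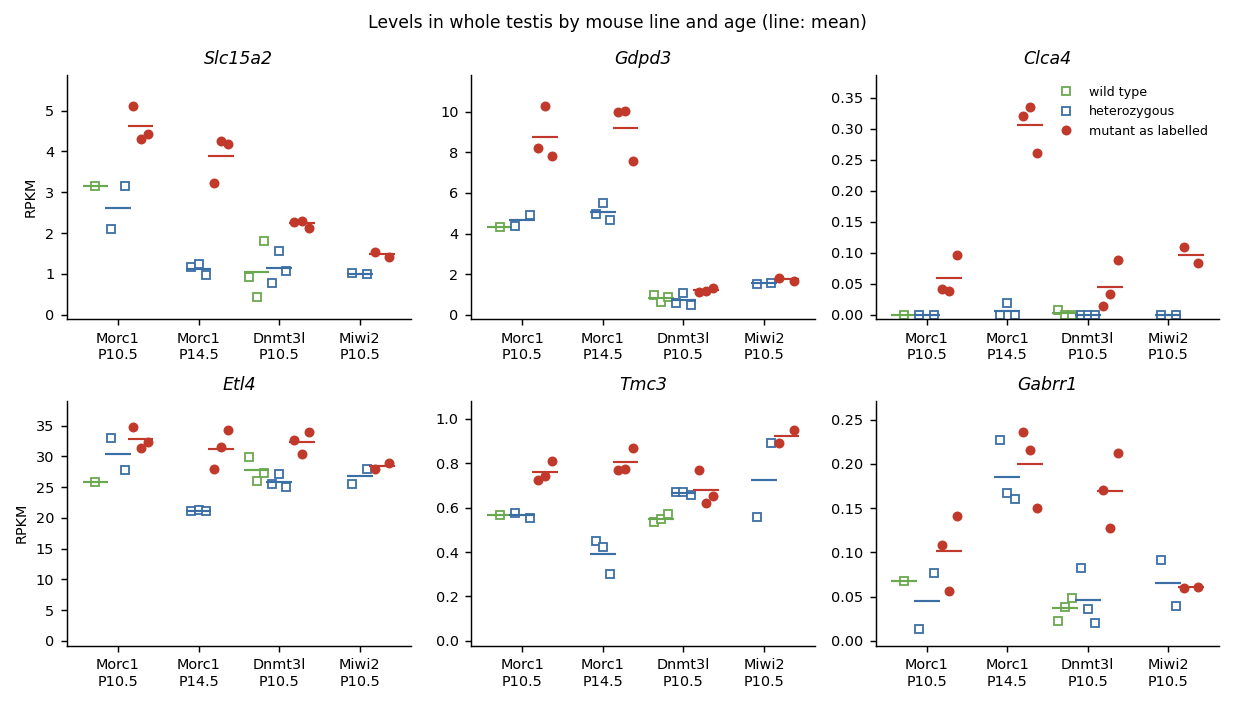
RPKM of 6 members in each whole testis library other than the preliminary ones, by line, age and genotype, with 1 point per library and a line at each mean. Gdpd3 and Slc15a2 stand higher in every Morc1tg/tg testis than in every control of the same age, and Gdpd3 levels in the controls differ between the Morc1 line (4.32 to 5.51) and the DNMT3L line (0.491 to 1.07).

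The DNMT3L testes asked whether the same genes respond when de novo methylation lacks its cofactor. Slc15a2 read 0.913, 0.426 and 1.80 RPKM in wild-type and 0.786, 1.55 and 1.07 in heterozygous testes, against 2.28, 2.31 and 2.12 in knockouts, above every control (log2 fold change 1.08, SE 0.31, adjusted p = 0.0101). Gabrr1 read 0.0198 to 0.0822 RPKM in the 6 controls and 0.170, 0.128 and 0.212 in the knockouts (log2 fold change 2.10, SE 0.36, edgeR adjusted p = 0.000458). With 2 to 6 reads per control and 13 to 23 per knockout library, Gabrr1 passed the filter on low counts through the knockouts. F8 read 0.502 to 0.583 RPKM in the controls and 0.727, 0.641 and 0.767 in the knockouts (log2 fold change 0.42, SE 0.10, adjusted p = 0.00388). Etl4 read 25.0 to 30.0 against 32.6, 30.4 and 33.9 RPKM (log2 fold change 0.32, SE 0.065, adjusted p = 0.00144). Gdpd3 read 0.491 to 1.07 against 1.10, 1.16 and 1.31 RPKM (log2 fold change 0.69, SE 0.24, adjusted p = 0.0285).

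Of 8 members tested by edgeR, 5 were called higher in the DNMT3L knockouts, beside 24.9% of all tested genes (no overlap for 6 of the 10, against 16.9%), while Slc14a1, Pitpnc1 and Tmc3 were not (adjusted p = 0.672, 0.741 and 0.198). Gabrr1 counts among the 5 through its knockout reads. Tmc3 read 0.534 to 0.670 RPKM in the controls and 0.770, 0.620 and 0.653 in the knockouts, with overlap, and Pitpnc1 2.98, 3.27 and 3.76 in the knockouts, within the control range. The Gdpd3 call was lost without DNMT3L wild-type replicate 2 (adjusted p = 0.0573), heterozygous replicate 1 (0.0532) or any knockout library (0.0568, 0.0642 and 0.085). It was also lost with heterozygous controls only (0.0533) or wild-type controls only (0.0536), so it passed with both control genotypes pooled and with neither alone. Clca4, not tested, had 1 read over the 6 controls and 2, 5 and 14 reads in the knockouts (ratio 35.8, counting interval 5.75 to 1479.5). In these testes 9 of 10 germ cell markers were lower and 6 of 8 Sertoli cell markers higher. Higher too were 4 of 7 endothelial markers (summed 278 to 331 CPM against 186 to 261, without overlap) and 4 of 8 peritubular and stromal (1 was lower), 2 of 7 macrophage and 1 of 6 Leydig markers, while of 5 tested duct markers 1 was higher and 2 were lower, beside the rise of F8, which is made mainly by endothelial cells. The part of these cells in the members' changes was not tested. When the Morc1 and DNMT3L effects at P10.5 were compared directly, 0 of 9 members differed by the edgeR test, beside 17.6% of all genes called, which does not show that the effects were alike. At an unadjusted p under 0.05, 1 of the 9 members (Chl1) and 5220 of 15902 genes passed. Chl1 passed the filter on low counts through Morc1tg/tg reads, so its place in this count is a description. By the same interaction test, the Morc1 effect lay above the DNMT3L effect for 8 of 10 germ cell markers. It lay below for 5 of 8 Sertoli cell and 1 of 7 endothelial markers, and no marker of the other lists was called. Morc1 itself averaged 6.58 RPKM in DNMT3L knockout, 11.7 in wild-type and 13.5 in heterozygous testes. The part of these in the comparison was not tested. Control levels of Gdpd3 and Slc15a2 differed between the lines, and line, strain and experiment cannot be told apart there.

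In the libraries labelled Miwi2 knockout, Clca4 had 16 and 12 reads against none in the 2 heterozygous libraries (0.108 and 0.0831 RPKM, at least 9.30-fold, edgeR adjusted p = 0.0178). Clca4 entered this test through the labelled knockout reads alone, so its call is a description. It was the 1 member called of 9 tested, beside 0.725% of all tested genes, although 8 of the 10 did not overlap (29.7% of genes). Slc15a2 read 1.02 and 0.992 against 1.53 and 1.41 RPKM (log2 fold change 0.54, adjusted p = 0.0665) and Chl1 0.012 and 0.00576 against 0.0411 and 0.054 (4 and 2 against 14 and 18 reads, adjusted p = 0.0653), in both cases without overlap. Chl1 passed the filter on low counts through the labelled knockout reads, so its adjusted p, also with a library left out, is a description. Gdpd3 read 1.52 and 1.58 against 1.80 and 1.67 RPKM and Etl4 25.6 and 28.0 against 28.0 and 29.0, differences that did not pass. DESeq2 gave no adjusted p for Clca4 and called no member. Without the library labelled Miwi2 knockout replicate 2, Slc15a2 passed (0.0404). Without that labelled replicate 1, Clca4 fell below the filter on low counts and was not tested while Chl1 passed (0.0364), and without heterozygous replicate 2, Tmc3 passed (0.02). Cell type markers differed as well: 4 of 5 tested fat markers were lower (summed 12.1 to 12.3 against 35.8 to 39.6 CPM), 2 of 4 duct markers were higher (33.0 to 33.7 against 22.0 to 22.7), and germ cell markers summed to 1678 to 1715.0 against 1336 to 1358, with 1 of 10 called higher and 1 lower. The summed peritubular and stromal, endothelial and blood markers were also higher and the Leydig markers lower without overlap, with 1 of 6 tested blood markers called higher and 1 of 6 Leydig markers called lower. Their part was not tested.

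The members were chosen for a shared change, so their likeness across the 20 sorted libraries is a description. Pearson's r between pairs of members, on log2 CPM, ran from 0.228 to 0.924 over 45 pairs (median 0.682). Genes outside the 10 with the pattern most like the members' mean were Gc, the vitamin D binding protein (r = 0.944), Atp10b, a lipid flippase (0.917), Unc13c, a synaptic vesicle primer (0.911), Cdkl4 (0.904) and the serine protease Tmprss11f (0.894), ranked among 17758 genes. These r values describe 20 libraries that share stages and genotypes.

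Relatives of the members, 39 genes of the same families, are given beside the share of all genes called. In P10.5 germ cells 1 of 26 tested was higher and 2 were lower, where 12.2% of all tested genes were called in either direction. In the Morc1 testes 1 of 30 was higher and 3 lower at P10.5 (15.3% of all genes), and 4 were higher and 5 lower at P14.5 (34.8%). Tmc2, a channel of inner ear hair cells from the same family as Tmc3, passed at most stages. It read 6.77 ± 1.40 against 13.8 ± 0.81 RPKM at E16.5 (n = 2 each, log2 fold change 0.96, edgeR adjusted p = 0.00158) and 0.283 ± 0.10 (n = 4) against 1.03 ± 0.31 (n = 3) in P10.5 germ cells (log2 fold change 1.78, adjusted p = 0.00484). Tmc2 was also higher in Morc1 testes at P10.5 (2.16, adjusted p = 0.00599) and P14.5 (2.26, 0.00113), in DNMT3L knockouts (4.59, 1.2e-06) and in the libraries labelled Miwi2 knockout (3.33, 0.000686), but at E18.5 and P2.5 the test gave adjusted p of 0.12 and 0.931. The adhesion molecule Nrcam, related to Chl1, fell by 1.55 in P10.5 germ cells (adjusted p = 2.35e-05) and by 0.46 in P10.5 testes (0.0241), and Gpcpd1, a relative of Gdpd3, by 0.34 (0.0218) in the germ cells. Gdpd1 fell by 0.41 in P10.5 testes (adjusted p = 0.00177), and at P14.5 Gdpd4 had a log2 fold change of -1.35 (0.00129) and Clca2, of the Clca family, -1.06 (0.00797). In DNMT3L testes, where 53.9% of all genes were called, 7 of 30 relatives were higher and 6 lower, Srcin1, related to Etl4, falling by 1.40 (1.75e-06) and Clca2 by 1.72 (0.00512), and in the libraries labelled Miwi2 knockout 1 of 30 was higher and 2 were lower, against 1.23% of all genes (Clca2 -1.08, adjusted p = 0.047, and Clca1 -0.90, 0.00159).

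The genes next to the members were described to see whether whole neighbourhoods changed. Of the 20 flanking genes, none of 14, 13 and 9 tested was called at the 3 earlier stages, where 0.421%, 0.0416% and 0.0486% of all genes were called in either direction. In P10.5 germ cells 3 of 8 tested were higher (6.43% of all genes), Ypel3 beside Gdpd3 (log2 fold change 0.39, edgeR adjusted p = 0.0468) and Nol11 and Psmd12 on either side of Pitpnc1 (0.38, 0.0298, and 0.26, 0.0286). In the Morc1 testes 1 of 10 was higher and 1 lower at P10.5 (15.3% of all genes called in either direction), and 3 were higher and 2 lower at P14.5 (34.8%). In DNMT3L testes 5 of 12 were higher and 2 lower (53.9%), and in the libraries labelled Miwi2 knockout 1 of 11 was lower, Clca2 beside Clca4 (1.23%). Eaf2, upstream of Slc15a2, was lower in the testes while Slc15a2 was higher: it fell by 0.84 at P10.5 (adjusted p = 0.00137), 0.76 at P14.5 (0.00547) and 1.09 in DNMT3L knockouts (0.000282). Mapk3, beside Gdpd3, rose by 0.19 in P10.5 testes (0.0266), Pm20d2, beside Gabrr1, by 0.44 at P14.5 (0.0298), and Mtcp1, beside F8, by 0.64 in DNMT3L knockouts (0.0495).

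**Figure D4:**
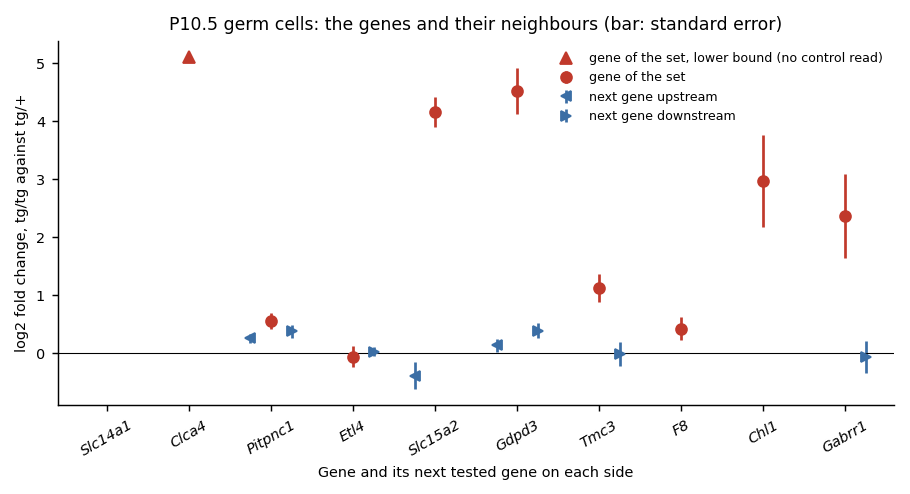
Log2 fold changes of each member and of its nearest genes on either side in P10.5 germ cells, 1 column per member, with red points for the member (a triangle for the lower bound of Clca4), blue arrowheads for its tested neighbours and bars for standard errors; Slc14a1 and its neighbours were too low to test. Slc15a2 and Gdpd3 stand above 4 while their tested neighbours lie below 0.4.

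Several members overlap other genes. F8 overlaps the start of Fundc2 on the opposite strand, which was higher in P14.5 (log2 fold change 0.37) and DNMT3L testes (0.41), while F8 itself was higher in the latter alone, and Tmc3 overlaps Gm16638 (0.57 in DNMT3L testes, edgeR adjusted p = 0.0487). TruSeq v2 libraries do not mark strand, so reads of such stretches cannot be told apart. RefSeq lists Clca4 as an older name of several genes of a family with near-identical copies. The entry counted here, ENSMUSG00000037033, lies at chr3:144485587-144512321 on mm9, was matched to Clca3b in RefSeq through its upstream neighbour, and its values may include reads from relatives despite unique mapping. Slc15a2 (chr16:36750264-36785048) lies 11.6 Mb from Morc1 on the same chromosome.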

How the data were processed

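RNA was sequenced from 20 sorted germ cell libraries (10 ng RNA, NuGEN Ovation Human FFPE kit, rRNA depleted) and 27 whole testis libraries (TruSeq v2). The authors trimmed reads, discarded rRNA reads, kept unique matches to mm9 genes and repeats, counted them with HTSeq (the submitters' processing notes also name Bowtie) and deposited read counts and RPKM per gene. The deposited counts and the authors' RPKM were used as given. Small RNA files hold read sequences with no gene and were not used. Sorted and testis libraries were fitted apart, and lines and ages together only to test differences of effects.

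Counts were tested with edgeR 4.0.16 (quasi-likelihood test, TMM, filterByExpr) in R 4.3.3, separately for each comparison, with p-values adjusted over all genes by Benjamini-Hochberg and called below 0.05. Differences of effects were interaction terms. Standard errors (SE), those in the figures included, were derived from the test: the absolute log2 fold change over the square root of its F statistic. Wild-type and heterozygous testes were pooled as controls. DESeq2 1.42.0, other scaling, no filter, other controls, a replicate block and leaving out each library were alternatives. The scripts were tested on simulated data. A gene with no control read was given a floor of 3 reads over the group, and the error of its mutant reads was left out of the fold. Intervals of ratios are exact 95% counting intervals that cover counting error only. The p-values measure the spread between these libraries, each from 1 mouse. Genes were matched by symbol. Likeness was Pearson's r of log2 CPM (pseudocount 0.5) with the members' mean, naming the 5 nearest. Named relatives and neighbours were those past the threshold, at most 3 by size of change per comparison.

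The members, the relatives, the neighbours and the marker lists (germ, Sertoli, Leydig, peritubular and stromal, endothelial, macrophage, blood, duct and fat cells) were chosen with earlier results of these data known. No 2 libraries of the same group held near-identical counts, and libraries of different groups were not compared in this way. The 2 preliminary testis libraries entered the test of heterozygous against wild-type testes and 1 alternative.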

Additional observations from a re-analysis of the deposited data

Results flagged for a closer look

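Etl4 in P10.5 Morc1tg/+ germ cells had a highest library of 2.79 RPKM that stood apart from the other 3, with a gap of 0.842 of the group's range. Chance sets a library apart in this way in about 1 of 20 groups, and 9 groups were tested.

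The effects of Morc1 and DNMT3L loss on P10.5 testes differed, by the interaction test in edgeR, for these relatives and neighbours and for Fundc2, which overlaps F8, with the Morc1 effect minus the DNMT3L effect on the log2 scale given for each. The difference was -2.46 for Tmc2, 0.98 for Srcin1, -0.77 for Tmc8, 0.49 for Gdpd1, -0.49 for Pm20d2 and -0.35 for Fundc2. These are 4 of 30 relatives, 1 of 11 neighbours and 1 of 3 overlapping genes tested, beside 17.6% of all genes.

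The Morc1 effect at P14.5 differed from that at P10.5 in whole testis by 1.05 for Slc15a2, -1.43 for Gdpd4, -1.13 for Pitpnm3 and 0.37 for Gdpd1, each by the same interaction test. These are 1 of 9 members and 3 of 30 relatives tested, beside 8.22% of all genes.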

How the results depend on the processing

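At P2.5 the number of members called was 0 in the test as reported, 3 with no filter on low counts, 4 by DESeq2, and 0 to 1 with a library left out. In P10.5 Morc1 testes it was 4, and 2 with heterozygous controls only, and 2 to 5 with a library left out. In the libraries labelled Miwi2 knockout it was 1, 0 by DESeq2, and 1 to 2 with a library left out (without labelled knockout replicate 1, Chl1 and not Clca4). For the difference between P14.5 and P10.5 it was 1, 2 with no filter, and 1 to 2. For the difference between P10.5 and P2.5 germ cells it was 0, 2 with no filter, and 0 to 3. Leaving out libraries gave 1 to 4 for control levels and 0 to 1 for heterozygous against wild-type testes. In all these the cause was not tested.

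Pairing by replicate number was not established. Same-numbered libraries correlated at -0.022 (E16.5), 0.052 (E18.5), 0.15 and 0.11 (P2.5), 0.044 to 0.076 (P10.5 germ cells), -0.31 to -0.085 (P10.5 testes), -0.20 to 0.46 (P14.5), -0.56 to 0.026 (DNMT3L) and 0.54 for both Miwi2 pairs. No comparison with 3 pairs had every value over 0.1 or every library correlating best with its own number, and the Miwi2, E16.5, E18.5 and P2.5 comparisons had 2 pairs. With the replicate block, members called were 1 at P2.5 (Gabrr1, edgeR adjusted p = 3.5e-07), 6 in P10.5 germ cells (Gabrr1 lost, 0.0635), 2 in P10.5 testes (Tmc3 lost, 0.0765, and Chl1, 0.0539), 5 at P14.5, 4 in DNMT3L testes (Gdpd3 lost, 0.051) and 4 in the libraries labelled Miwi2 knockout, where Slc15a2 (6.73e-05), Chl1 (0.000323) and Tmc3 (0.0153) joined Clca4. Gabrr1 at P2.5 passed the filter on low counts through Morc1tg/tg reads, so its call is a description. The same holds for Clca4 and Chl1 with the labelled Miwi2 knockout reads.

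Genes called overall at E16.5 were 70, 180 with no filter, 174 with the block and 74 to 171 with a library left out. At E18.5 they were 6, 83, 46 and 0 to 190, and 296 by DESeq2. At P2.5 they were 7, 27, 32 and 0 to 70, and 21 by DESeq2. In P10.5 testes they were 2326, 1200 with the block and 922 to 2352 with a library left out, and in the libraries labelled Miwi2 knockout 197, 4503 with the block, 378 by DESeq2 and 340 to 952. Leaving out a library gave 3517 to 5001 genes at P14.5 against 5323. For the P10.5 to P2.5 difference they were 71, 401 with no filter and 21 to 1729 with a library left out, and for heterozygous against wild type 2, 119 and 2 to 441. Leaving out a library gave 1753 to 4021 against 2797 for the Morc1 and DNMT3L difference and 772 to 1746 against 1287 for the P14.5 to P10.5 difference.

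Leaving out a library changed the sign of small, uncalled log2 fold changes: Pitpnc1 at P2.5 (-0.35 to 0.33), Etl4 in P10.5 germ cells (-0.32 to 0.16), Pitpnc1 in DNMT3L testes (-0.036 to 0.12), and in the libraries labelled Miwi2 knockout Etl4 (-0.0018 to 0.14) and Pitpnc1 (-0.070 to 0.011).

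In CPM in place of RPKM, the number of members that did not overlap changed in P10.5 germ cells alone among the 8 comparisons. Few reads limit Clca4 and Gdpd3 at P2.5 and Slc14a1 and Chl1 in P10.5 germ cells.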
